A study of Homo sapiens with 4 samples.

Results

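The epidermal differentiation complex is a run of skin barrier genes in band 1q21.3, and the ELF5 peaks whose summits fall in it are described here. The rule for membership goes by position alone. It takes every peak of the deposited list with its summit on chromosome 1 between 151950 and 153650 kb on hg19, a stretch of 1.7 Mb. This stretch was chosen with earlier results of these data known. The rule found 139 of the 115384 peaks. The list comes from ChIP-seq of ELF5, a transcription factor of the ETS family made in glandular epithelium, in the human breast cancer line T47D, whose cells are of the luminal A type. All samples were untreated T47D cells in RPMI with 10% FBS and insulin, and the labels give 3 ELF5 ChIP replicates and 1 input. The authors' list does not give replicates separately, so its values carry no replicate error and no groups of samples could be tested. The sources used here do not say whether the list rests on all 3 replicates, nor whether they came from separate cultures.

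The complex has a conserved layout. S100 genes, which encode small calcium-binding proteins made in many cell types, lie at both ends. The centre holds genes of terminally differentiating keratinocytes: the fused-type S100 genes such as FLG (filaggrin, which bundles keratin), the late cornified envelope (LCE) genes, IVL (involucrin, an early envelope scaffold), the small proline-rich (SPRR) genes, which encode cross-bridging proteins, and LORICRIN, the main envelope protein. ETS factors bind sites built on a GGAA core, and ELF5 is best known as a regulator of mammary alveolar cells. The RefSeq table for GRCh38.p14 matched all 62 genes listed for the complex, 61 of them protein-coding, and placed them in 5 blocks that do not interleave. These are S100A10 and S100A11, 7 fused-type genes, 21 genes of the late envelope block, 17 of the block from SMCP past LORICRIN to PGLYRP4, and 15 from S100A9 to S100A1.

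No annotation of hg19 was used here, so single peaks are given by position and not assigned to genes. The stretch was divided at round distances chosen from the known gene order, with earlier results of these data known. The left S100 end is its initial 0.1 Mb, to 152050 kb, and the right S100 end its last 0.32 Mb, from 153330 kb. The centre between them is 1.28 Mb long, with inner borders at 152450 and 152850 kb that separate the fused-type, late cornified envelope and involucrin to loricrin parts. How closely these borders follow the genes on hg19 was not checked. The right end may also take in genes past S100A1, which in the known order are CHTOP, SNAPIN and ILF2. Counts given for the S100 ends include any peaks there. LCE and SPRR genes are families of similar copies, and the sources used here do not say how reads matching several copies were placed, so peak counts there are uncertain.

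Of 2 ETS-type words searched ahead of the genes, one was more frequent than in promoters in general and the other was absent from the centre. The words were AGGAAG and CGGAAG, both on either strand, in the 250 bases before each RefSeq start; they share the letters GGAAG and can overlap each other. AGGAAG or its complement stood in 27 of 42 promoters of the centre (64.3%) and 12 of 23 of the S100 ends (52.2%), against 28.7% of all 35116 promoters. By block the share was 3 of 7 for fused-type genes, 14 of 20 for the late envelope block and 10 of 15 for the block of IVL, SPRR and LORICRIN. CGGAAG stood in none of the 42 centre promoters, in 3 of the 23 at the ends (13%) and in 16.5% of all promoters. The 3 were at S100A11, S100A9 and S100A13. Median GC content was 51.0% in the centre, 58.8% at the ends and 58.0% over all promoters, and the part that base composition plays in these shares was not tested. Neighbouring copies within a family share sequence, and 57 of the 62 genes had an entry, some with several starts. A match is a description of letters, not a binding site.

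One promoter per block is shown so that the words can be seen in place, each as the 250 bases before the start, 5′ to 3′ on the gene's strand, with the matches in capitals (CTTCCT and CTTCCG are the complements). The sequences are RefSeq's on GRCh38.p14, a different build from that of the peaks, so their positions cannot be set against peak positions. They are S100A10 chr1:151993860-151994109 on the minus strand, FLG chr1:152325240-152325489 on the minus strand, LCE5A chr1:152510553-152510802 on the plus strand, IVL chr1:152908296-152908545 on the plus strand and S100A9 chr1:153357604-153357853 on the plus strand.
S100A10: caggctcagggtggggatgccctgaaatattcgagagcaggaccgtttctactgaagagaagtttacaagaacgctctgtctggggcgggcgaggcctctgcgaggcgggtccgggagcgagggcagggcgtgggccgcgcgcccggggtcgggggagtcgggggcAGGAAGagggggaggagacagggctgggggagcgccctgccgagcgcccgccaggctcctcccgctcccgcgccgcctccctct
FLG: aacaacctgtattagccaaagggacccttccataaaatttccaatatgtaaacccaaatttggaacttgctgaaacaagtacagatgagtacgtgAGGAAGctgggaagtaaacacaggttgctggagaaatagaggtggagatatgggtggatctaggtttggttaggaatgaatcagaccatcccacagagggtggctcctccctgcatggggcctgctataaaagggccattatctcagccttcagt
LCE5A: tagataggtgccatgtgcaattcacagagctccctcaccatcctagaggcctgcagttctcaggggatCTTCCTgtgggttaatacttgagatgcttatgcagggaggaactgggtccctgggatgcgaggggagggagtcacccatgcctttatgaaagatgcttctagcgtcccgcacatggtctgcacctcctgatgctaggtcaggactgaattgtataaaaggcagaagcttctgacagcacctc
IVL: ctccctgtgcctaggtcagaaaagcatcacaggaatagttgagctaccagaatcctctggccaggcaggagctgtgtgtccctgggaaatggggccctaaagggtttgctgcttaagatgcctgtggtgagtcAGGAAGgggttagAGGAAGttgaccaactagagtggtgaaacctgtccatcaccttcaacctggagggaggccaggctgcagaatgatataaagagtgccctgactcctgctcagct
S100A9: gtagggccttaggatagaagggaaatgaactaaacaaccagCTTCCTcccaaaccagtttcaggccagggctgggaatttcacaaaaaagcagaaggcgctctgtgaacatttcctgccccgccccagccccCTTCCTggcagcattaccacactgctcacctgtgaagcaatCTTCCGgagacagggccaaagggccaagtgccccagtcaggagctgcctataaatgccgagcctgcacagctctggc
The IVL promoter held AGGAAG in 2 places, starting 117 and 104 bases before the start. S100A9, which encodes a subunit of the calprotectin dimer, held 3 matches, of which 1 was CGGAAG on the complementary strand 77 bases before the start. S100A10, the annexin A2 partner, FLG and LCE5A each held 1.

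ELF5 peaks were denser at the S100 ends than over the cornified envelope centre. The ends held 67 peaks in 0.42 Mb, 159.5 per Mb, and the centre 72 peaks in 1.28 Mb, 56.2 per Mb, a ratio of 2.84. The ends thus made up 24.7% of the length and 48.2% of the peaks. Each end was denser than the centre, with 12 peaks (120 per Mb) on the left and 55 (172 per Mb) on the right. The 3 parts of the centre were close to each other, at 52.5 per Mb over the fused-type genes, 65.0 over the late envelope genes and 52.1 over involucrin, SPRR and loricrin. The rest of band 1q21.3 held 113.7 per Mb, so the centre had 0.495 times and the pooled ends 1.40 times the density of their surroundings. The left end, at 120 per Mb, was close to the rest of the band, and the excess lay at the right end. Chromosomes 1 to 22 and X together held 38.0 per Mb, which makes the centre 1.48 times as dense as the list as a whole. By all peaks, the centre was thin relative to its band but not to the genome. These densities have no replicate check, and neighbouring peaks are not independent of each other.

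**Figure D1:**
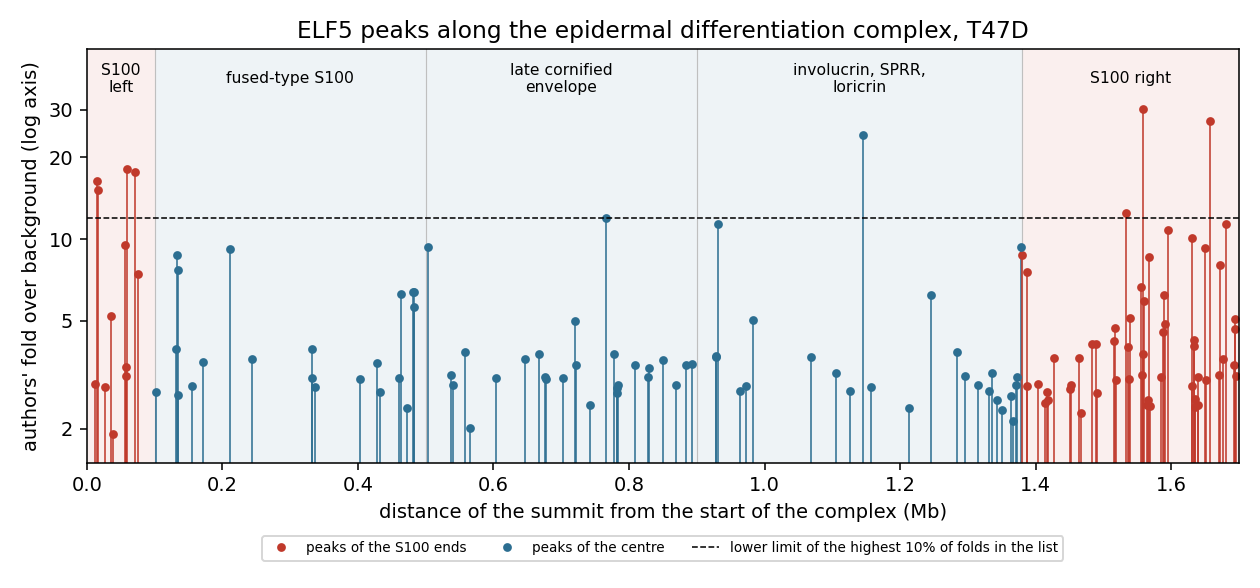
Each stem is 1 of the 139 peaks, placed by the distance of its summit from the start of the complex (Mb, horizontal) and its fold enrichment as the authors gave it (vertical, log axis); red marks the S100 ends and blue the centre. The dashed line is the strong threshold of 11.99: 7 red and 2 blue peaks reach it, the lower blue one lying on the line.

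Strong peaks, here the highest 10% of folds in the whole list, were mostly at the ends. The fold is the authors' ratio of ChIP to local background, and the threshold was 11.99. In the complex 9 of 139 peaks (6.47%) were strong, against 10.0% of the whole list. The ends held 7 of these among 67 peaks (10.4%) and the centre 2 among 72 (2.78%), and 51 of 341 peaks (15.0%) were strong in the rest of the band. The 2 ends differed from each other, with 4 of 12 strong on the left (33.3%) and 3 of 55 on the right (5.45%), so the pooled share describes neither. The right end, like the centre, lay below the share of the list. Per Mb there were 40 strong peaks at the left end, 9.38 at the right end and 1.56 in the centre, against 17.0 in the rest of the band and 3.8 over chromosomes 1 to 22 and X. By density of strong peaks, both ends were thus above the centre, which lay at 0.411 times the level of the genome, and the right end was below the rest of the band. Ranked by the authors' p instead, the highest 10% of the list included 13 peaks of the complex, 8 at the ends and 5 in the centre, which lowers the ratio of their densities from 10.7 to 4.88.

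The left end, the stretch of S100A10 and S100A11, had the largest share of strong peaks of the 5 parts. Its highest peak covered 152008704 to 152009680. Its fold was 18.1, for which the 95% counting interval (given in brackets below) was 15.7 to 20.8, from a pileup of 198 fragments over a background of 9, the largest pileup of the complex. A peak 11.6 kb further right, from 152020300 to 152021180, had a fold of 17.7 (15.0 to 20.9). The other 2 strong peaks were neighbours. One, at 151964820 to 151965448, was enriched 16.4-fold (13.6 to 19.7), and the other, at 151965566 to 151966974, was enriched 15.2-fold (12.4 to 18.4). All 4 intervals overlapped, so the order of these peaks was not resolved at this depth. The remaining 8 peaks of the left end had folds from 1.92 to 9.49. Of these, 3 lay beside the highest peak, and together they formed the longest run of summits less than 1 kb apart in the complex, 4 peaks from 152006840 to 152009680.

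The right end, named for S100A9 to S100A1, had the most peaks, 3 of them strong, and the 2 highest folds of the complex. How many of these peaks, strong ones included, lie past S100A1 was not checked. The highest peak, from 153508093 to 153509032, had a fold of 30.3 (25.9 to 35.2), a pileup of 168 and rank 1610 in the whole list. The next, from 153605691 to 153607109, had a fold of 27.4 (23.4 to 31.9) and rank 2291, and the intervals of these 2 overlapped. The third, from 153483391 to 153483780, was close to the threshold with a fold of 12.4 (9.65 to 15.8). The right end was itself uneven. In the window from 1.4 to 1.5 Mb after the start of the complex, 1 of 12 peaks had −log10 q of 5 or more and the highest fold was 4.11, while from 1.5 to 1.6 Mb 14 of 21 peaks did. From 1.6 to 1.7 Mb the count was 9 of 19. In the known gene order S100A9, S100A12, S100A8 and the S100A7 genes come before S100A6 to S100A1, but which genes lie in which window on hg19 was not analysed here.

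In the centre 2 peaks were strong. The one from 153095259 to 153095917, in the involucrin, SPRR and loricrin part, stood far above its surroundings with a fold of 24.2 (20.3 to 28.7), a pileup of 132 and rank 3312 in the list. It was the only peak of the centre whose interval lay wholly above the strong threshold. Its window of 0.1 Mb held 4 peaks, and the window before it held 1. The other, from 152715844 to 152716262 in the late envelope part, had a fold of 11.99 (9.52 to 14.9) and sat on the threshold itself. Just under the threshold were a peak of the centre at 152880741 to 152881129, enriched 11.4-fold (8.98 to 14.3), and one of the right end at 153630958 to 153631565, enriched 11.3-fold (9.34 to 13.6). The fused-type part had no strong peak among 21, and its highest, from 152161136 to 152161984, had a fold of 9.21 (7.02 to 11.9). That part did hold the broadest peak of the complex, which spanned 2870 bp, positions 152081230 to 152084099, and was enriched 8.77-fold (6.93 to 10.9). Only 0.0676% of the list was broader.

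**Figure D2:**
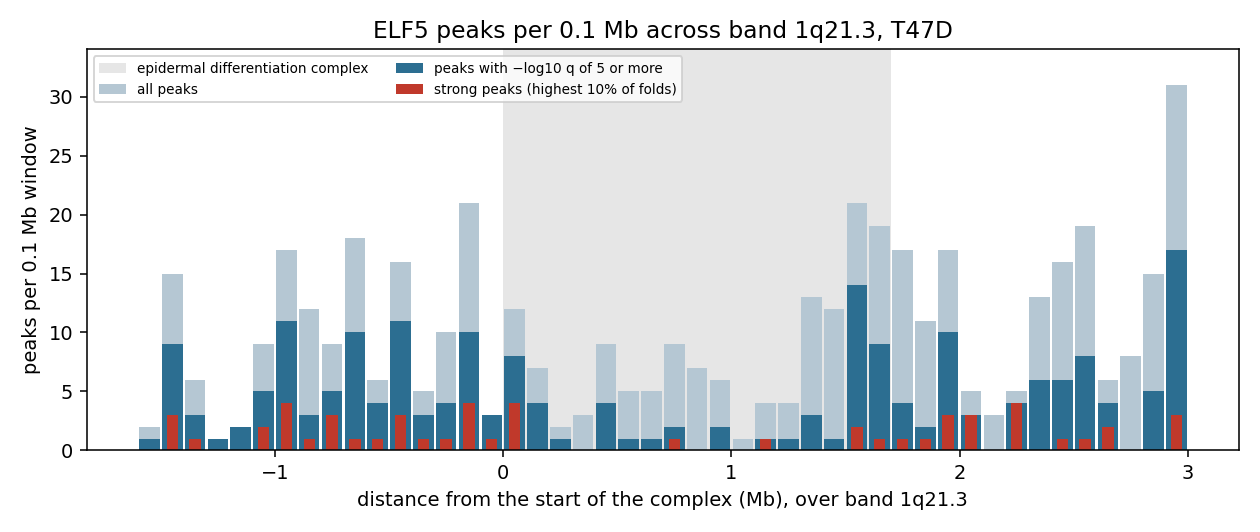
Peaks per window of 0.1 Mb (vertical) across band 1q21.3, by distance from the start of the complex (Mb, horizontal), with the complex shaded; bars are drawn in front of each other, all peaks in light blue, those with −log10 q of 5 or more in dark blue and strong peaks in red. Inside the complex the count of all peaks is 12 in the leftmost window, 1 between 1.0 and 1.1 Mb and 21 between 1.5 and 1.6 Mb.

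The thin stretch ran through the middle of the complex but was uneven. On its left the counts of the 3 outermost windows were 12, 7 and 2, while the windows from 0.4 to 0.5 and from 0.7 to 0.8 Mb held 9 each. Windows of 0.1 Mb held from 1 to 21 peaks in the complex, with a median of 7, and from 1 to 31 in the rest of the band, with a median of 10. Of 17 windows in the complex 12 had no strong peak, against 7 of 29 in the rest of the band. Single poor windows were not particular to the complex, since 8 of the 29 outside it also held 5 or fewer peaks, as did 7 of the 17 inside. On the right the count reached 13 in the window from 1.3 to 1.4 Mb, which the border crosses. A pair of similar peaks flanks that border, 1.84 kb before it with a fold of 9.34 (7.44 to 11.6) and 0.250 kb after it with a fold of 8.74 (6.75 to 11.1). The border therefore separates neighbours, and moving it is among the alternatives tried.

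Neighbouring summits lay 13.5 kb apart in the centre by the median, against 2.66 kb at the left end, 2.29 kb at the right end and 4.19 kb over the whole list. The longest stretch without a summit was 88.6 kb, from 152193499 to 152282103 in the fused-type part. The next were 85.8 kb from 152933322 to 153019109 in the involucrin, SPRR and loricrin part, and 67.7 kb from 152285973 to 152353688, again in the fused-type part. The 9 longest such stretches were all in the centre. Close neighbours were also less frequent there, with 7 of 71 distances (9.86%) at most 1 kb, against 15 of 54 (27.8%) at the right end and 3 of 11 (27.3%) at the left. Over the list the share was 22.8%.

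Well-supported peaks showed the difference between ends and centre more than the list as a whole. A −log10 q of 5 or more was reached by 34 of 67 peaks at the ends (50.7%) and 18 of 72 in the centre (25%), against 36.7% of the whole list. The rest of the band was like the ends, with 170 of 341 (49.9%). Within the centre the count was 9 of 21 for the fused-type part, 4 of 26 for the late envelope part and 5 of 25 for the involucrin, SPRR and loricrin part. The fused-type share, 42.9%, was thus above that of the list. The density of such peaks was 81.0 per Mb at the ends and 14.1 in the centre, a ratio of 5.76. Chromosomes 1 to 22 and X held 13.95 per Mb, close to the pooled centre. That pooled value describes none of its parts, which held 22.5 (fused-type), 10.0 (late envelope) and 10.4 per Mb (involucrin, SPRR and loricrin). With q under 0.05, which 87.5% of the list reached, the shares lay close together, 60 of 67 at the ends (89.6%) and 61 of 72 in the centre (84.7%).

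**Figure D3:**
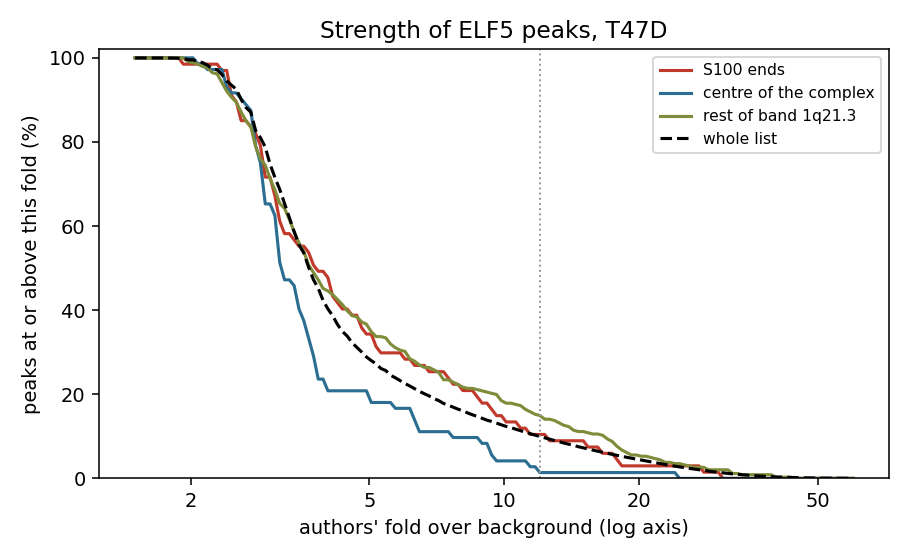
Share of peaks (%, vertical) with at least the fold given on the horizontal log axis, for the 67 peaks of the S100 ends (red), the 72 of the centre (blue), the 341 of the rest of band 1q21.3 (olive) and the whole list (dashed black); the dotted line is the strong threshold of 11.99. The blue curve lies below the other 3 between folds of 3 and 20, and at the threshold stands at 2.78% against 10.0% for the list.

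The typical peak of the complex was much like that of the whole list. The median −log10 q was 3.18 in both, and the median pileup was 18 fragments against 16. A −log10 q of 5 or more was reached by 37.4% of the members and 36.7% of the list. Typical peaks could not be ranked, since their counting intervals were wide: the peak with a fold of 3.43 had one of 2.19 to 5.15. Over the 139 members the median fold was 3.43 (interquartile range 2.88 to 5.09), against 3.66 in the whole list and 3.70 in the rest of the band. It was 3.78 at the ends and 3.19 in the centre, and 6.35, 3.52, 3.25, 3.11 and 3.66 in the 5 parts from left to right. The left end's median rests on 12 peaks. The median width was 258 bp at the ends and 196.5 bp in the centre, against 215 bp over the list. Peaks of at least 800 bp numbered 7 at the ends and 2 in the centre, which is 9 of 139 members, and made up 7.95% of the list.

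Depth differed along the complex as well. The fragment pileup recovered from the authors' fold and p had a median of 25 at the ends and 15 in the centre, and the local background a median of 5.00 and 3.83 fragments. By part the background medians were 6.21, 4, 3.47, 3.74 and 4.86, and that of the whole list was 3.105. A background of at least 6 fragments stood behind 22 of the 67 peaks at the ends and 9 of the 72 in the centre. Background and peak density were thus both higher at the pooled ends than in the centre, but they did not follow each other across the parts. The left end had the highest background but fewer peaks per Mb (120) than the right end (172). The late envelope part had the lowest background but the highest density within the centre (65.0 per Mb). The part of the background in the difference between ends and centre was not tested. Copy number and the share of uniquely mappable sequence were not analysed here.

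**Figure D4:**
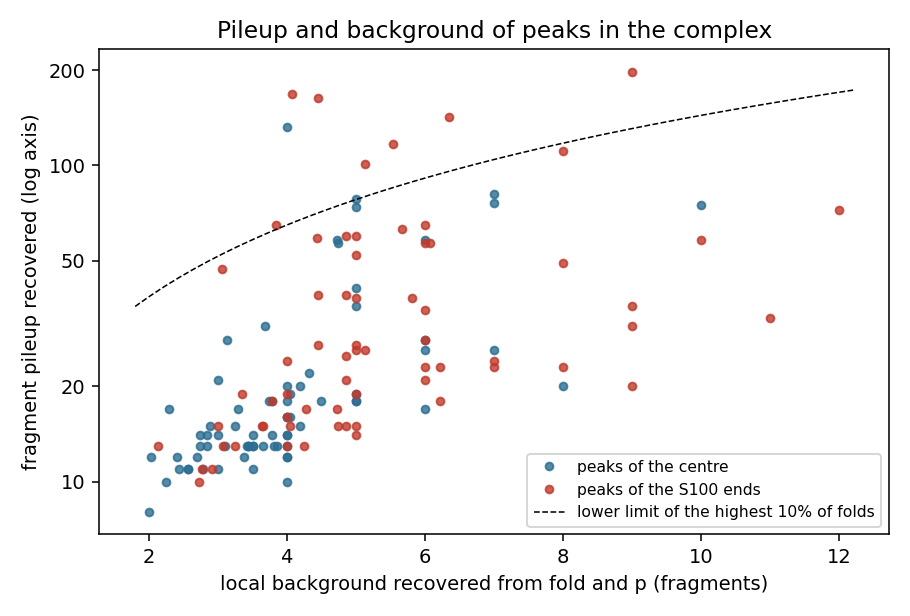
Each point is 1 of the 139 peaks, by its recovered local background (fragments, horizontal) and fragment pileup (vertical, log axis), with the S100 ends in red and the centre in blue; the dashed line marks the fold of 11.99. Most blue points sit in the lower left, at pileups near the centre's median of 15, with 1 far above the line at a pileup of 132.

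Just outside the stretch, the nearest peak on the left lay 6.70 kb before it with a fold of 3.88 (2.71 to 5.40). On the right the nearest was 0.356 kb beyond it with a fold of 4.29 (2.82 to 6.30). The nearest strong peaks were 67.9 kb to the left, at 151881748 to 151882452 (fold 17.8, interval 14.9 to 21.2), and 50.2 kb to the right, at 153700003 to 153701478 (fold 17.0, interval 14.5 to 19.8).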

How the data were processed

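Per the labels, sonicated chromatin of T47D nuclei was immunoprecipitated for ELF5 (3 replicates), and 1 input was sequenced. The antibodies named in the protocol are for other factors; that for ELF5 is given per sample. The file header and the submitters' processing notes give hg19 as the build. The sources used here do not give the aligner, peak caller, threshold or pooling. The track name labels the list as IDR, and how the replicates entered it is not stated. The largest q in the list was 0.583. The authors' deposited score is the whole part of 10 times the −log10 p in all 115384 rows. The deposited −log10 p, −log10 q and fold, a ratio whose unit the file does not state, were used as the authors gave them, and only within this list.

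Pileups and backgrounds were inferred from fold and p as whole pileups times 0.910, with 1 added to pileup and background and a Poisson tail, and every −log10 p was met within 0.001. The recovery was tested on simulated data. Total reads per sample are unknown here. The 95% interval given with a fold is the exact Poisson interval of its pileup; the background is held fixed, so only counting error is covered. Positions are counted from 1. The band came from circlize 0.4.16. Values were computed in Python 3.11.15 (scipy 1.17.1, numpy 2.4.6, pandas 2.3.3) and plotted in matplotlib 3.10.9.

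The members, gene lists and borders were chosen with earlier results of these data known. Named are all strong peaks, the highest of each part and the nearest peaks outside; the broadest peak and those beside the threshold or border were added after their values were seen. Promoter words were chosen after the peaks had been seen. No test was run, since the list has no value per replicate.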

Additional observations from a re-analysis of the deposited data

How the results depend on the processing

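The complex has 4 summary values: 139 peaks, 9 strong peaks, a median fold of 3.43 and an end-to-centre density ratio of 2.84. They were recomputed under 31 alternative values, of which 21 stayed close and 10 moved. Only the ratio has a direction, and it was at least 2.13 in each of its 12 alternatives. A count moved if it differed by over 1.5 times, and the ratio or median if it left a 95% binomial interval that treats peaks as independent (2.0 to 4.01 and 3.12 to 3.67). Among the highest 50% of folds there were 60 peaks, with a ratio of 4.57 and a median of 6.23. The lower count and the higher median follow from the choice of peaks, and the 9 strong peaks could not change there. Nor could they change with q under 0.05, since the lowest −log10 q among them was 45.3. Both settings are among the 21 that stayed close, so that tally overstates how stable the values are. With −log10 q of 5 or more there were 52 peaks, with a ratio of 5.76 and a median of 6.55. The ratio was 10.7 for strong peaks, which rests on 2 peaks in the centre, and 4.88 for the highest 10% by −log10 p. Strong peaks numbered 3 of the 139 with the highest 5% of folds in the list and 26 with the highest 20%. Such counts change with the threshold by definition. Shifted borders, joined summits, membership by overlap, either end alone and the loss of the last 0.04 Mb kept the ratio between 2.13 and 3.06. The last 0.04 Mb was left out because of the genes beyond S100A1. That cut keeps the strong peak from 153605691 to 153607109, whose place relative to S100A1 was not checked. The values for −log10 q of 5 or more, and the ratios for strong peaks and for the highest 10% by −log10 p, were chosen after seeing the data. Replicates could not be left out. No paired analysis was possible because replicates are not given separately.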
